A study of Saccharomyces cerevisiae with 43 samples.

Results

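Transcript responses to 20 min of hydrogen peroxide (H2O2) were compared between budding yeast cells that had earlier met sodium chloride and cells that had not. The pretreated cells came from BY4741, a haploid strain of mating type a much used in laboratories, and had grown for 3 doublings in YPD, spent 60 min in 0.7 M NaCl, recovered for 240 min in medium without stress and then received 0.4 mM H2O2 for 20 min. The naive cells were BY4741 that went from the same exponential growth straight to 0.4 mM H2O2 for 20 min. Each group had 3 spotted 2-colour arrays, which set the H2O2-treated cells against 0 min cells of the same group, so that the recovered cells were the 0 min of the pretreated group. These 6 arrays were chosen by their labels, out of 32 arrays of the first array design and 43 arrays in the whole series. Further arrays used here were those at 10 min of H2O2, with 3 pretreated and 3 naive, and those of recovered and of mock-handled cells after 240 min against untreated cells, with 3 each. A second array design added 1 array per condition in BY4741 and in nup42-delta, a strain without the nuclear pore protein gene NUP42, after at least 7 generations of growth. No mock-handled cells received H2O2, so the salt and the later 240 min of culture and handling cannot be told apart in the differences below. Both channels of each first-design array held BY4741, so the ratios do not check the strain.

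Budding yeast meets peroxide with overlapping programmes. The transcription factor Yap1, together with Skn7, drives the specific oxidant defence, which comprises peroxiredoxins, thioredoxin and glutathione enzymes, reductases and exporters. Msn2 and Msn4 drive a general stress programme shared with salt, heat and starvation, which includes catalase T and the trehalose enzymes, while genes of ribosome production and growth fall in the same programme. A first mild stress can raise the tolerance to a later and different stress, a property called acquired resistance. The comparison asked how the later transcript response differs after the first stress and the recovery from it.

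Values below are log2 ratios of H2O2-treated over 0 min cells, and the difference is the pretreated mean minus the naive mean, so that a positive difference means higher in pretreated cells. Base 2 and the direction of the ratio were inferred and not stated by the submitters. Each standard error (SE) and adjusted p comes from limma over all genes, with 0.05 as the threshold of the adjusted p. The 3 pretreated arrays held 5354, 5537 and 4735 values with SDs of 1.05, 1.01 and 1.38, and the 3 naive arrays held 5189, 5418 and 5042 values with SDs of 1.01, 0.98 and 1.10. The third pretreated array had thus the widest ratios. The array identifiers in the labels start with YG8 for replicate 3 of both groups and with YG9 for the others. The spread behind each p was pooled over the groups of the first design, and not taken only from the pretreated and naive arrays compared here. Each p may therefore understate the scatter of the compared arrays. For CYB5, group SDs of 2.07 and 0.17 give a larger SE than the fitted 0.56. The same holds for EMG1, with SDs of 0.65 and 0.06 and a fitted SE of 0.21. For CTT1, SDs of 0.05 and 0.60 give a smaller SE than the fitted 0.53. Not every gene was compared in this way. Whether the replicates were separate cultures is not stated, so the pooled spread may be technical. These are bulk samples, in which a larger share of cells with a transcript and more transcript per cell cannot be told apart.

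Of 5298 genes tested at 20 min, 205 (3.87%) differed between pretreated and naive cells. In pretreated cells 166 genes (3.13%) were higher and 39 (0.736%) were lower. The higher genes had a median difference of 1.05 and the lower genes a median of −0.96, against −0.04 over all genes tested. Among the 166 higher genes, 51 had means above 0 in both groups, 43 had means below 0 in both, and 72 had a pretreated mean above 0 and a naive mean below 0. Of the 39 lower genes, 5 were above 0 in both groups, 21 below 0 in both, and 13 had a pretreated mean below 0 and a naive mean above 0. Among the 4234 genes with a value on all 6 arrays, the 3 pretreated values lay above all naive values for 487 (11.5%) and below them for 390 (9.21%).

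**Figure D1:**
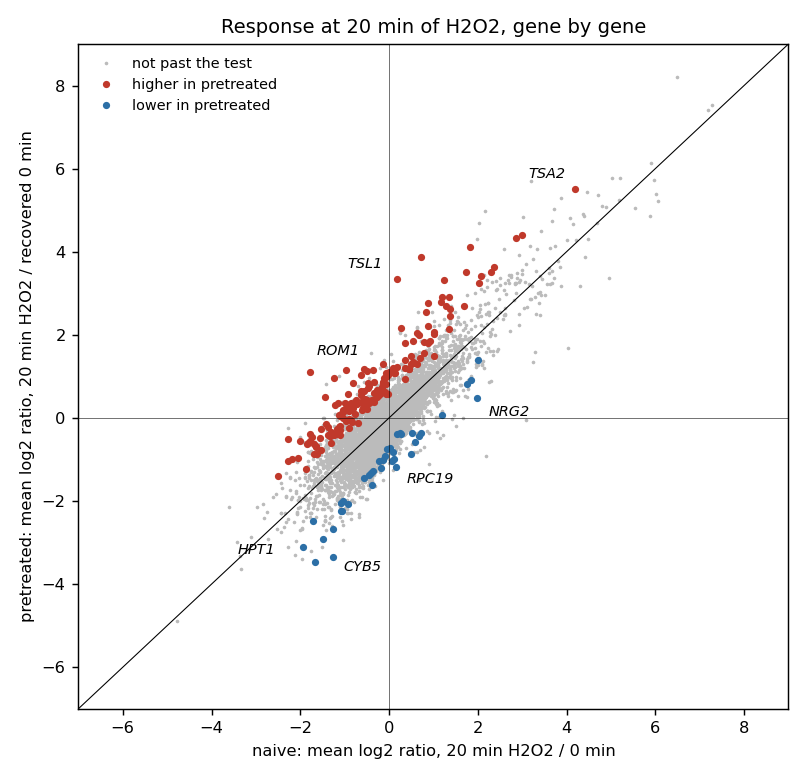
Mean log2 ratio at 20 min of H2O2 over the group's own 0 min in pretreated cells (vertical) and naive cells (horizontal), 1 point per gene tested, with the line of equal response. The 166 genes higher in pretreated cells lie above the line and the 39 lower genes below it, and TSL1 rests on 2 arrays in each group.

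The number of genes past the test rested on the fit to all 32 arrays, which gives each gene its spread from all groups. A fit to the 6 arrays alone called 0 genes, with 582 at an unadjusted p under 0.05, and a fit to the H2O2 arrays alone called 6, which were ADH5, LAM4, MCH4, ROM1, SNQ2 and TSA2. Scaling all 32 arrays to 1 spread left 0 calls (342 unadjusted), whereas scaling only the 10 and 20 min arrays left 171. Single arrays also moved the count. It was 20 without pretreated replicate 3, 28 without naive replicate 1, 24 without naive replicate 2 and 11 without replicate 1 of both groups, and it was 692 without pretreated replicate 2 and 523 without naive replicate 3. With the array series as a block, 542 genes passed, 342 higher and 200 lower. Within the YG9 arrays, which is the fit without replicate 3 of both groups, 198 genes passed, 196 higher and 2 lower. The YG8 series held 1 array a group and gave no test. The 39 lower genes had a median difference of −0.76 within YG9 and −1.47 within YG8, and the 166 higher genes 1.12 within YG9 and 0.92 within YG8. These genes were selected on the difference over both series together, so the same sign in each series is largely built in. Over all genes tested the medians were 0.05 within YG9 and −0.22 within YG8.

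The enzymes that remove peroxide differed in 2 of 14 members tested, both higher, against 3.13% of all genes. TSA2, a cytosolic peroxiredoxin, read 5.68, 5.41 and 5.47 on the pretreated arrays, against 4.31, 4.47 and 3.80 on the naive arrays. The groups did not overlap, and the difference was 1.33 ± 0.21 (SE), or 2.51-fold, with an adjusted p of 0.0037. PRX1, the mitochondrial peroxiredoxin, read 3.46, 3.06 and 4.01 in pretreated cells, against 1.96, 2.32 and 2.61 in naive cells (difference 1.21 ± 0.29, adjusted p = 0.025). CCP1, the mitochondrial cytochrome c peroxidase, had separate groups as well but missed the threshold (1.03 ± 0.30, adjusted p = 0.059). SRX1, the sulfiredoxin that repairs peroxiredoxins, had 2 values in each group, 7.64 and 8.79 in pretreated cells and 6.71 and 6.25 in naive cells, with an adjusted p of 0.17. TSA1, the main cytosolic peroxiredoxin, also had 2 values in each group, 1.64 and 1.21 in pretreated cells and 1.44 and 1.36 in naive cells, and these overlapped. CTT1, the cytosolic catalase T, read 5.72, 5.79 and 5.82 in pretreated cells, against 4.75, 4.95 and 5.88 in naive cells. Its groups overlapped through the third naive array, and its difference of 0.58 had a 95% interval of −0.51 to 1.68. Over the 14 enzymes the median difference was 0.52.

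Of 23 thioredoxin and glutathione genes, 5 were higher and 0 lower (21.7%, against 3.13% of all genes), with a median difference of 0.44. The 5 were GSH1 and GSH2, ECM4, OPT1 and YCF1. GSH1, which makes gamma-glutamylcysteine in the rate-limiting step of glutathione synthesis, read 2.80, 2.06 and 2.48 in pretreated cells, against 1.30, 1.15 and 1.65 in naive cells. GSH2, the glutathione synthetase of the next step, read 0.52, 0.43 and 0.79 in pretreated cells, against −0.18, −0.24 and 0.23 in naive cells. Both genes had separate groups, with differences of 1.08 ± 0.20 and 0.64 ± 0.15 (adjusted p = 0.0052 and 0.023). OPT1, a transporter of oligopeptides and glutathione, lay below 0 on all 6 arrays, at −1.20, −1.13 and −0.81 in pretreated cells and −2.62, −2.30 and −1.91 in naive cells (difference 1.23 ± 0.21, adjusted p = 0.0038). ECM4, a glutathione transferase, differed by 1.47 and YCF1, the vacuolar pump for glutathione conjugates, by 0.72. GLR1, the glutathione reductase, had separate groups, 1.77, 1.20 and 1.47 in pretreated cells against 1.05, 0.86 and 0.88 in naive cells, and stood at an adjusted p of 0.0502. The thioredoxin genes TRX2 and TRR1 differed by 0.36 and 0.54 and did not pass (adjusted p = 0.37 and 0.11). Of the 23 estimates, 20 were above 0 and 3 below 0. GRX8 had the lowest, −1.42, and missed the threshold (adjusted p = 0.059).

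Among regulators of the oxidant response 1 of 15 was higher (6.67%, against 3.13% of all genes), YAP1 itself. YAP1 read 0.99, 0.99 and 1.69 in pretreated cells, against −0.03, −0.01 and 0.61 in naive cells, a difference of 1.03 ± 0.24 (adjusted p = 0.020). SKN7, its partner, read −1.33, −1.48 and −2.02 in pretreated cells and −1.52, −1.14 and −0.99 in naive cells, with overlapping groups. MSN2 and MSN4 differed by 0.31 and 0.66 with overlapping groups (adjusted p = 0.42 and 0.33). The list of reductases and exporters, which also held LSB3 and TRI1, had the highest share of members past the test among the oxidant lists. It had 8 of 23, all higher (34.8%, against 3.13% of all genes). These were GRE2, GRE3, ATR1, SNQ2 and the aryl-alcohol dehydrogenase genes AAD3, AAD4, AAD6 and AAD15. SNQ2, an ABC transporter for many drugs, read 0.74, 0.35 and 0.86 in pretreated cells, against −0.73, −0.78 and −0.20 in naive cells. ATR1, a drug efflux pump, read 0.88, 0.81 and 1.73 in pretreated cells, against −0.43, −1.07 and 0.04 in naive cells. Neither gene had overlapping groups, and their differences were 1.22 ± 0.20 and 1.63 ± 0.31 (adjusted p = 0.0038 and 0.0092). Of 15 genes of NADPH supply, ZWF1 alone passed (6.67%, against 3.13% of all genes). ZWF1, the glucose-6-phosphate dehydrogenase that opens the pentose phosphate pathway, read 1.36, 0.99 and 1.84 in pretreated cells, against −0.18, 0.31 and 0.92 in naive cells (difference 1.05 ± 0.27, adjusted p = 0.037). GND1, the next dehydrogenase of that pathway, read −0.03, 0.10 and −0.38 in pretreated cells, against 0.33, 0.58 and 0.35 in naive cells and missed the threshold (adjusted p = 0.059).

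**Figure D2:**
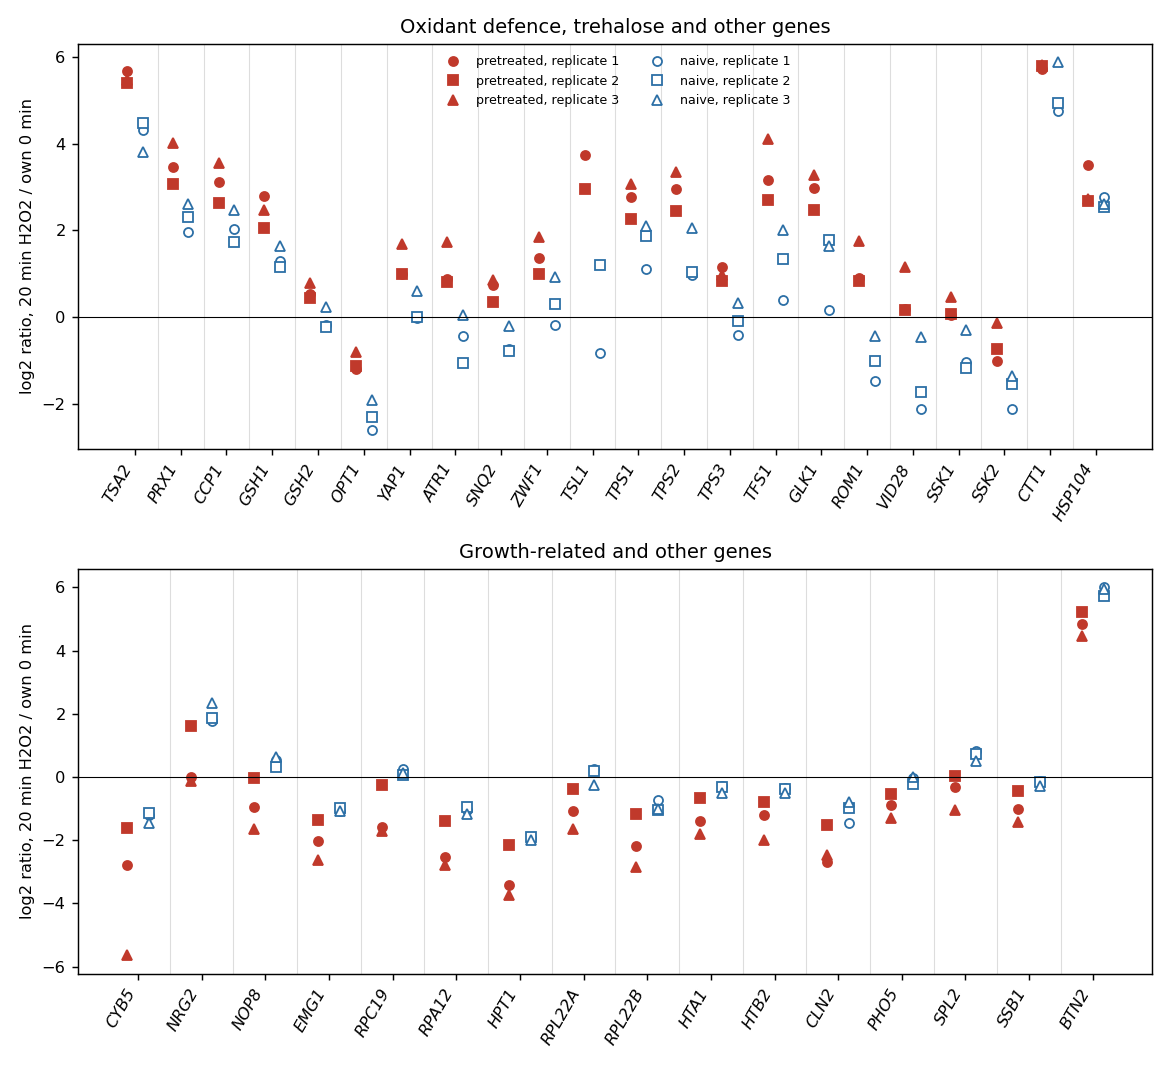
Log2 ratio of each array at 20 min of H2O2 over its own 0 min, for genes described in the text, with pretreated arrays filled and left of the open naive arrays, and symbols by replicate. TSA2, GSH1, TPS2 and ROM1 keep the groups apart, CTT1 and HSP104 do not, and most genes of the lower panel have their lowest value on pretreated replicate 3.

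Genes of trehalose and glycogen metabolism differed in 6 of 23 members tested, all higher (26.1%, against 3.13%), with a median difference of 0.86. All 6 act on trehalose, a disaccharide that protects proteins and membranes under stress: TPS1, TPS2, TPS3 and TSL1 belong to the synthase complex, and NTH1 and NTH2 are neutral trehalases that break it down. TPS2, the phosphatase of the complex, read 2.95, 2.44 and 3.35 in pretreated cells, against 0.96, 1.05 and 2.05 in naive cells. TPS1, the synthase, read 2.77, 2.27 and 3.07 in pretreated cells, against 1.11, 1.88 and 2.11 in naive cells. In both genes the groups were separate, with differences of 1.56 ± 0.33 and 1.00 ± 0.28 (adjusted p = 0.015 and 0.047). TPS3, a regulatory subunit, read 1.15, 0.83 and 0.96 in pretreated cells, against −0.41, −0.10 and 0.33 in naive cells. TSL1, the other regulatory subunit, had only replicates 1 and 2, at 3.73 and 2.95 in pretreated cells and −0.83 and 1.21 in naive cells. Its difference of 3.15 ± 0.58 was the largest among the 166 higher genes and rests on naive values of opposite sign. NTH1 and NTH2 differed by 1.25 and 1.19. GLC3, the glycogen branching enzyme, read 3.67, 4.03 and 4.47 in pretreated cells, against 2.84, 3.20 and 3.98 in naive cells, with overlapping groups.

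Of 63 general stress genes of the Msn2 and Msn4 type, 7 were higher and 0 lower (11.1%, against 3.13%), with a median difference of 0.58. These 7 were TPS1, TPS2 and TSL1, which are also in the trehalose list, and GLK1, GRE3, PIC2 and TFS1. GRE3 is also in the list of reductases and exporters. TFS1, an inhibitor of the vacuolar protease carboxypeptidase Y, read 3.16, 2.71 and 4.12 in pretreated cells, against 0.39, 1.33 and 2.02 in naive cells (difference 2.08 ± 0.41, adjusted p = 0.011). GLK1, a glucokinase, read 2.98, 2.46 and 3.29 in pretreated cells, against 0.16, 1.77 and 1.63 in naive cells (difference 1.72 ± 0.44, adjusted p = 0.031). Genes often used to mark this programme did not pass. DDR2 read 6.56, 7.25 and 8.42 in pretreated cells and 6.16, 6.95 and 8.43 in naive cells. HSP12, a membrane-protecting heat-shock protein gene, read 4.33, 4.25 and 6.49 in pretreated cells and 2.97 and 4.48 on the 2 naive arrays with a value. In both genes the values of each group spanned more than the difference between the group means.

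Chaperone genes differed in 0 of 35 members tested by limma, with a median difference of −0.18. HSP104, the disaggregase, read 3.50, 2.69 and 2.73 in pretreated cells, against 2.77, 2.55 and 2.60 in naive cells, and the 95% interval of its difference ran from −0.26 to 0.92. BTN2, which gathers misfolded proteins, read 4.86, 5.22 and 4.48 in pretreated cells, against 6.01, 5.72 and 5.94 in naive cells. Its pretreated values lay below the naive ones on all arrays, but with an adjusted p of 0.11 it did not pass. The proteasome list had 0 of 36 members past the test and a median difference of 0.13. Of 36 osmotic and glycerol genes, SSK1 and SSK2 were higher (5.56%, against 3.13% of all genes), which encode a response regulator and a kinase of the high-osmolarity pathway. SSK2 read −1.02, −0.74 and −0.14 in pretreated cells, against −2.13, −1.55 and −1.37 in naive cells (difference 1.05 ± 0.21, adjusted p = 0.0092). GPD1, the glycerol synthesis gene most used as a marker of osmotic stress, read 3.13, 2.77 and 2.68 in pretreated cells, against 2.35, 2.72 and 2.34 in naive cells, and did not pass. The autophagy list of 30 had 1 gene in each direction (3.33%, against 3.13% higher and 0.736% lower of all genes). ATG1, the kinase that starts the process, was higher (0.60, 0.52 and 1.78 in pretreated cells, −2.19 and −0.28 on 2 naive arrays). ATG5, of the conjugation machinery, was lower, at 0.39, 1.46 and 0.62 in pretreated cells and 1.94, 1.44 and 1.90 in naive cells, where the groups overlapped.

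Lists of growth genes held calls of the opposite sign. Of 136 genes in the cytosolic ribosomal protein list, 0 were higher and 4 lower (2.94%, against 0.736% of all genes). Their median difference was −0.68. The list includes RPP1, which is not a ribosomal protein gene and did not pass. The list medians of the arrays were −0.68, −0.28 and −1.36 in pretreated cells, against 0.12, 0.01 and −0.41 in naive cells, over the 128 genes with all 6 values. The ranges overlapped, since the second pretreated array lay above the third naive array. RPL22B read −2.19, −1.16 and −2.85 in pretreated cells, against −0.73, −1.03 and −1.0 in naive cells (difference −1.15 ± 0.32, adjusted p = 0.047). RPL22A, its paralog, read −1.07, −0.39 and −1.64 in pretreated cells, against 0.24, 0.20 and −0.24 in naive cells (difference −1.10 ± 0.31, adjusted p = 0.046). RPS22A and RPS29A, the other two, differed by −0.89 and −0.92. The array probes are not described in the labels, so values of paralogs (RPL22A and RPL22B, HTB1 and HTB2, TPS3 and TSL1, the AAD genes) may share signal.

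The 139 ribosome biogenesis genes had 0 higher and 4 lower members (2.88%, against 0.736%), with a median difference of −0.74. On the arrays their medians were −1.12, −0.57 and −1.90 in pretreated cells and −0.38, −0.46 and −0.51 in naive cells, so each pretreated array lay below each naive array. Within YG9 the list's median difference was −0.45 and within YG8 −1.37. NOP8, a nucleolar factor of the large subunit, read −0.94, −0.04 and −1.65 in pretreated cells, against 0.53, 0.32 and 0.62 in naive cells (difference −1.37 ± 0.33, adjusted p = 0.029). EMG1, a methyltransferase of small-subunit rRNA, read −2.01, −1.35 and −2.64 in pretreated cells, against −1.08, −0.98 and −1.07 in naive cells (difference −0.96 ± 0.21, adjusted p = 0.016). NOP19 and SOF1 of the small-subunit processome were the other two. Among 23 subunits of RNA polymerases I and III, 2 were lower (8.70%, against 0.736% of all genes). All 23 estimates were below 0, against 2841 of the 5298 genes tested. RPC19, a subunit shared by both polymerases, read −1.57, −0.25 and −1.72 in pretreated cells, against 0.26, 0.06 and 0.14 in naive cells (difference −1.33 ± 0.30, adjusted p = 0.020). RPA12, of RNA polymerase I, read −2.52, −1.40 and −2.77 in pretreated cells, against −1.05, −0.96 and −1.17 in naive cells. NOP8, EMG1, RPC19 and RPA12 had separate groups, with the smallest gap on pretreated replicate 2. Translation factors and tRNA synthetases had 0 of 52 members past the test and a median of −0.36, and mitochondrial ribosomal proteins 0 of 66 with a median of 0.08.

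Of the 10 histone genes 3 were lower (30.0%, against 0.736%), HTA1, HTB1 and HTB2, which encode the core histones H2A and H2B. HTA1 read −1.40, −0.67 and −1.79 in pretreated cells, against −0.27, −0.32 and −0.49 in naive cells (difference −0.93 ± 0.25, adjusted p = 0.038). HTB1 and HTB2 differed by −0.88 and −0.92. Of 27 G1 and replication genes, 1 was lower (3.70%, against 0.736%), CLN2, a G1 cyclin that commits cells to division. CLN2 read −2.70, −1.52 and −2.47 in pretreated cells and −1.44, −0.99 and −0.80 in naive cells (difference −1.15 ± 0.27, adjusted p = 0.022). The mitosis and cell separation list had 0 of 32 members past the test. Of 19 phosphate genes, 2 were lower (10.5%, against 0.736%). These were PHO5, the secreted acid phosphatase, and SPL2, a regulator of low-affinity phosphate uptake. SPL2 read −0.31, 0.04 and −1.03 in pretreated cells, against 0.83, 0.72 and 0.50 in naive cells (difference −1.12 ± 0.24, adjusted p = 0.020). Of 27 ergosterol genes, 1 was lower (3.70%, against 0.736%), CYB5, the electron donor cytochrome b5. CYB5 had pretreated values of −2.77, −1.61 and −5.64 and naive values of −1.20, −1.15 and −1.47. Its difference of −2.07 ± 0.56 was the largest among the 39 lower genes and leaned on pretreated replicate 3.

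The remaining lists held few calls, at shares near the 3.13% of all genes that were higher. Respiration and the TCA cycle had 2 of 45 members higher (4.44%), SDH4 of succinate dehydrogenase (0.98) and the aconitase gene ACO1 (0.78). MUP1, a methionine permease, was the only one of 26 methionine and sulfate genes past the test (3.85%, higher by 1.21). The mating type a list had 0 of 17 past the test. Genes of mating type alpha and of meiosis, which growing haploid a cells should not use, had 9 of 20 members tested and 0 past the test, with array medians between −0.18 and 0.56 over the 4 members with all values. Of 4 genes deleted in whole or part in BY4741 only HIS3 was tested (−0.16, adjusted p = 0.73).

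**Figure D3:**
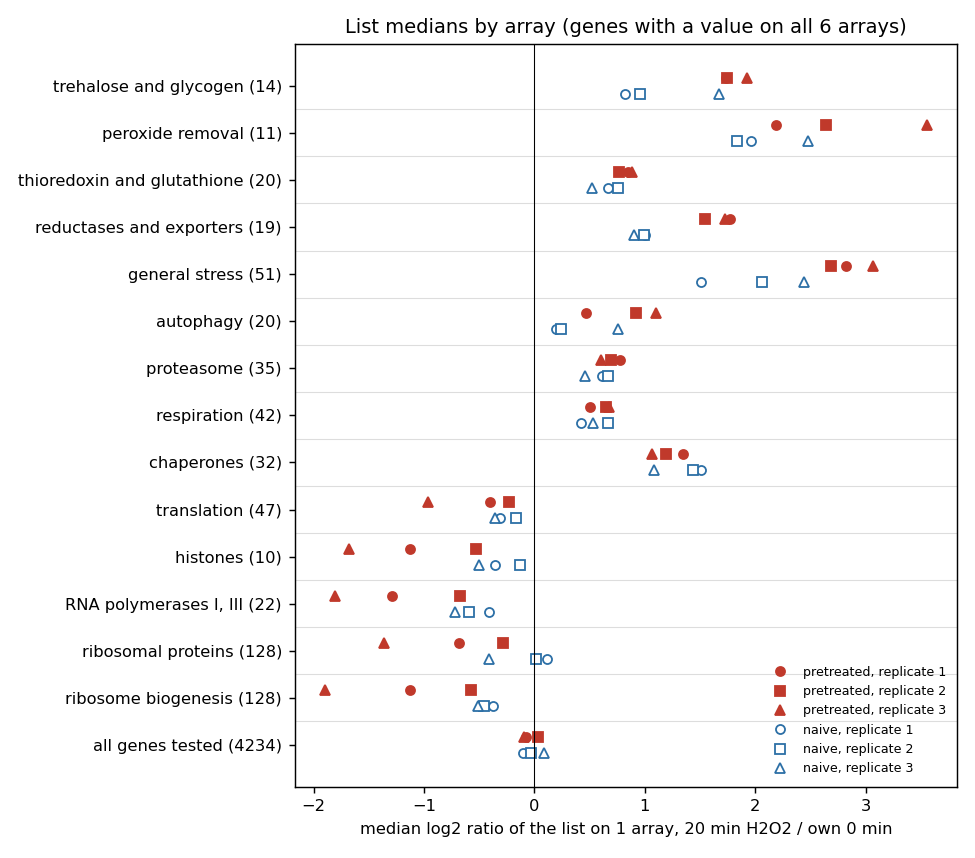
Median log2 ratio of each gene list on each of the 6 arrays at 20 min of H2O2, over members with a value on all 6 (number in brackets), with pretreated arrays filled and drawn above the open naive arrays. Pretreated medians lie at higher values than naive ones for reductases and exporters and for general stress, at lower values for ribosome biogenesis, and among each other for chaperones.

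The genes with the largest differences were chosen among those past the test with separate groups and all 6 values. The 12 largest positive differences were those of ROM1, TFS1, VID28, GPT2, HER1, HMX1, GLK1, RSF2, TMT1, ATR1, TPS2 and YCX1, from 2.14 down to 1.53. ROM1, an activator of the Rho1 GTPase of the cell wall integrity pathway, read 0.91, 0.83 and 1.75 in pretreated cells, against −1.47, −1.02 and −0.43 in naive cells (difference 2.14 ± 0.32, or 4.40-fold, adjusted p = 0.0037). VID28, a subunit of the ubiquitin ligase that degrades gluconeogenic enzymes, read 0.18, 0.17 and 1.15 in pretreated cells, against −2.12, −1.73 and −0.46 in naive cells (difference 1.94 ± 0.32, adjusted p = 0.0037). Both genes were thus above 0 min on every pretreated array and below it on every naive array. GPT2, an acyltransferase that starts glycerolipid synthesis, read 2.05, 1.67 and 2.77 in pretreated cells, against −0.43, 0.34 and 0.93 in naive cells. HMX1, the heme oxygenase, read 2.02, 2.70 and 2.93 in pretreated cells, against 0.41, 0.44 and 1.63 in naive cells. TMT1, a methyltransferase of trans-aconitate, read 2.75, 2.45 and 3.16 in pretreated cells, against 0.97, 1.09 and 1.42 in naive cells. Their differences were 1.88, 1.72 and 1.63, all past the test.

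The 10 largest negative differences under the same conditions were those of CYB5, YPR074W-A, NRG2, NOP8, RPC19, RPA12, HPT1, CLN2, RPL22B and SPL2, from −2.07 to −1.12. NRG2, a repressor of glucose-repressed genes, read 0.00, 1.61 and −0.14 in pretreated cells, against 1.78, 1.87 and 2.33 in naive cells (difference −1.50 ± 0.36, adjusted p = 0.026). HPT1, a purine salvage enzyme, read −3.42, −2.16 and −3.74 in pretreated cells, against −1.92, −1.91 and −2.0 in naive cells (difference −1.16 ± 0.30, adjusted p = 0.031). In both, pretreated replicate 2 lay nearest to the naive values. The feature YPR074W-A read −3.88, −2.25 and −4.28 in pretreated cells, against −1.61, −1.76 and −1.64 in naive cells.

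A response is relative to its own 0 min, so the level at 20 min was also compared by adding the recovered cells' ratio over untreated cells to the pretreated value before the naive value was subtracted. By this measure 12 of 5280 genes (0.227%) differed, 11 higher (0.208%) and 1 lower (0.0189%), with 852 at an unadjusted p under 0.05. The higher genes were LAM4, ADH5, SNQ2, TSA2, ROM1, MCH4, IRE1, RMD9, VID28, OPT1 and AIF1. LAM4, a sterol transfer protein of membrane contact sites, read 0.40, 0.32 and 0.99 in pretreated cells, against −1.23, −0.98 and −0.54 in naive cells. The recovered cells stood at 0.02, 0.14 and −0.13 against untreated cells, and the level difference was 1.497 ± 0.24 (adjusted p = 0.015). TSA2 stood at 0.08 and 0.32 on the 2 recovered arrays with a value and had a level difference of 1.53 ± 0.28 (adjusted p = 0.024). ADH5, an alcohol dehydrogenase, read 2.80, 2.61 and 2.88 in pretreated cells and 0.97 and 0.77 on 2 naive arrays, and its level difference was 2.12. The lower gene was NSL1, of the kinetochore, with a level difference of −1.58 ± 0.31.

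The recovered cells' ratios over untreated cells had list medians from −0.16 for trehalose and glycogen genes to 0.37 for ribosomal proteins, with 0.36 for histones and −0.01 over all genes tested. The mock-handled cells, which met no salt, had medians of −0.13 for trehalose and glycogen genes, 0.235 for ribosomal proteins and 0.225 for histones. The median level difference of ribosomal proteins was −0.29, where the response differed by a median of −0.68, and for histones it was −0.28, where the response differed by −0.70. In ribosome biogenesis the medians were −0.76 for the level and −0.74 for the response. Where a dye biases a gene equally on every array, that bias cancels in the difference of responses and does not cancel in the level difference. With the mock-handled arrays subtracted, where it cancels, 0 of 5190 genes passed, with 512 at an unadjusted p under 0.05. The next counts are again for the level difference without this subtraction. The count was 0 without pretreated replicate 3, 142 without pretreated replicate 2 and 145 without naive replicate 3. It was between 0 and 4 without replicate 1 or 2 of both groups, pretreated replicate 1, naive replicate 1 or naive replicate 2. With the array series as a block it was 814, and within the YG9 arrays 22.

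At 10 min of H2O2 the same genes were set beside their 20 min values. Both times share the 0 min cells of their group by label, and the arrays of a replicate share an array number. GSH1 read 1.89, 1.40 and 1.96 at 10 min in pretreated cells, against 0.59, 0.65 and 0.59 in naive cells, a difference of 1.14 beside 1.08 at 20 min. TSA2 read 4.16, 3.57 and 4.42 at 10 min in pretreated cells, against 2.88, 2.73 and 2.92 in naive cells, a difference of 1.21 beside 1.33. Both genes had separate groups at both times. LAM4 read −0.30, −0.60 and −0.24 at 10 min in pretreated cells, against −0.72, −0.33 and −0.66 in naive cells, with overlapping groups and a difference of 0.19 beside 1.49. CTT1 read 3.99, 3.44 and 5.21 at 10 min in pretreated cells, against 1.87, 1.08 and 4.24 in naive cells, a difference of 1.82 beside 0.58. The change of the difference between the times passed the test for 0 of 5014 genes (0%), with 210 at an unadjusted p under 0.05. It was 1.30 for LAM4 (95% interval 0.72 to 1.87, adjusted p = 0.55), −1.23 for CTT1 (−2.77 to 0.31, adjusted p = 0.98) and 0.12 for TSA2 (−0.49 to 0.73, adjusted p = 0.98). With the array number as a random block 16 genes passed. The 166 genes higher at 20 min had a median difference of 0.41 at 10 min and 1.05 at 20 min, and the 39 lower genes −0.47 at 10 min and −0.96 at 20 min. These genes were selected on the 20 min difference, so the larger size at 20 min is built in. At 10 min the median was 0.09 over all genes above 0 at 20 min and −0.18 over all genes below 0.

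The second array design measured the same treatments in BY4741 on arrays that the first design did not use, with 1 array per condition and therefore no test. There both conditions were set against untreated BY4741, so the pretreated minus naive value is a difference in level. Of the 166 genes higher in the first design, 162 were also above 0 (97.6%), against 80.7% of all genes whose first-design difference was above 0. The 4 exceptions, named after their values were seen, were PAT1, YDL085C-A, AEP3 and YHK8. Of the 39 lower genes 38 were measured, and 38 were below 0, against 71.6% of all genes whose first-design difference was below 0. Median differences on the second design were 1.07 for the higher genes and −1.37 for the lower genes. TSA2 read 6.05 in pretreated and 4.07 in naive cells, GSH1 2.64 and 0.80, and TPS2 3.65 and 1.58. NOP8 read −1.39 in pretreated and −0.38 in naive cells, RPL22B −2.55 and −1.14, and HTA1 −1.99 and −0.19. CTT1 read 6.26 in pretreated and 4.82 in naive cells and HSP104 3.44 and 2.17. The like measure of the first design, its level difference, was 0.56 for CTT1 and 0.0033 for HSP104, and neither passed the test. List medians of the second-design difference were 1.41 for general stress, 1.11 for reductases and exporters, −1.07 for ribosomal proteins and −1.25 for ribosome biogenesis, against 0.04 over all genes.

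In nup42-delta, where both arrays were set against pretreated nup42-delta cells before H2O2, 139 of the 166 higher genes (83.7%, against 71.3% of all genes above 0 in the first design) and 27 of 38 lower genes (71.1%, against 61.5%) kept the sign, with medians of 0.30 and −0.08. TSA2 read 4.95 in pretreated and 4.67 in naive nup42-delta cells, and the strains were not compared by a test.

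**Figure D4:**
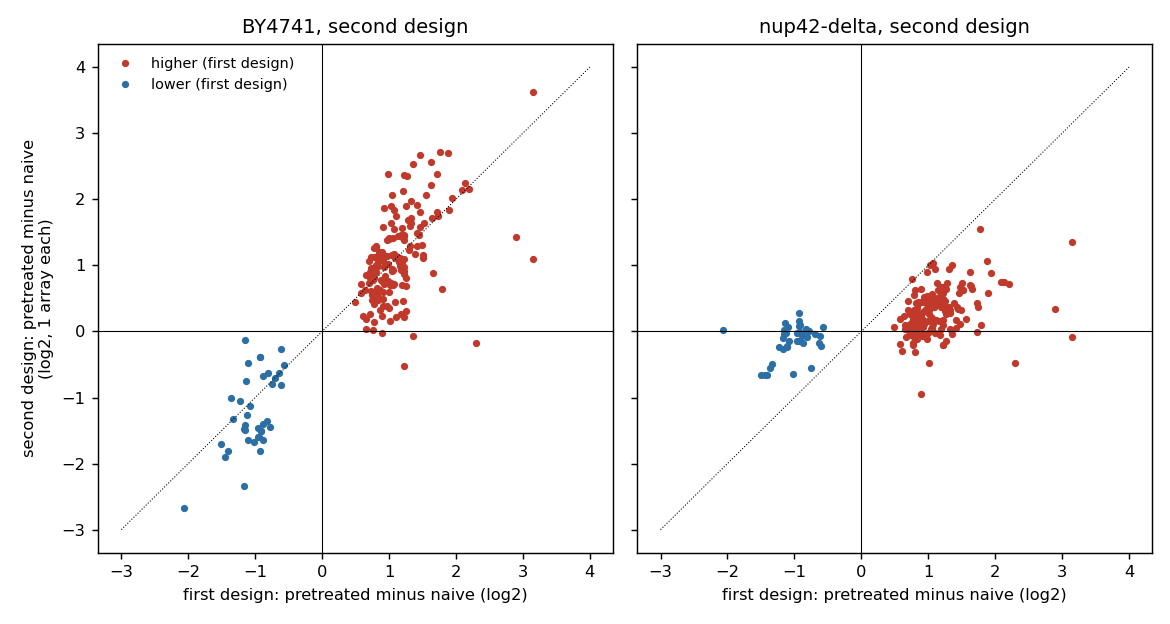
Pretreated minus naive at 20 min of H2O2 on the second array design (vertical, 1 array per condition) against the first design (horizontal), both in log2 units, for genes past the test in the first design, with BY4741 on the left, nup42-delta on the right and a dotted line of equality. The first-design value is a difference of responses and the second-design value a difference in level. In BY4741 all but 4 of the 166 higher genes lie above 0 and all 38 lower genes below 0, and in nup42-delta the points lie nearer to 0.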

How the data were processed

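The authors deposited 1 log ratio per feature and array, channel 2 over channel 1, read here as log2. Base and direction were inferred: the treated sample stands in channel 2 per the labels, without dye swaps. For the scanner, background correction and normalization, the sources used here give nothing. Ratios carry no spot intensity, so the precision of 1 value is unknown and the number of arrays limits that of a mean. The first design held 5604 features, 5457 of them matched to a locus tag of the RefSeq annotation for names, with 5.76% of values missing. No 2 arrays were identical.

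Group means were fitted over all 32 first-design arrays with limma 3.58.1 in R 4.3.3 (eBayes, 2-sided, Benjamini-Hochberg over all genes tested, threshold 0.05). A gene needed values on at least 2 arrays in each group compared, and missing values were dropped. The spread is pooled over all groups, so an SE may understate the scatter of the 6 arrays. The script was tested on simulated data. The named genes were the 12 largest positive and 10 largest negative differences past the test with separate groups and 6 values, up to 3 members per list by adjusted p, 21 fixed genes and up to 8 per further contrast; the other list members are named because they passed. The members, the 26 gene lists and this rule were chosen with earlier results of these data known. Alternatives for the arrays fitted, scaling, centring, missing values, blocks, weights and omitted arrays were tried. No genome build is named with the arrays, and no coordinates or sequences are given.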

Additional observations from a re-analysis of the deposited data

Results flagged for a closer look

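Some genes lay on opposite sides of their 0 min level in the groups. Among the 4234 genes with 6 values, 47 (1.11%) were above 0 on every pretreated array and below 0 on every naive array, and 18 of these passed the test of the difference. The opposite pattern was seen in 28 genes (0.661%), of which 4 passed. Of the genes named here, ROM1 (difference 2.14), VID28 (1.94), RSF2 (1.65), LAM4 (1.49), SNQ2 (1.22), SSK1 (1.03) and AAD15 (0.99) had pretreated values above and naive values below 0. RSF2, a zinc finger regulator, read 0.88, 0.31 and 1.89 in pretreated cells, against −0.81, −0.88 and −0.18 in naive cells. SSK1 read 0.05, 0.06 and 0.46 in pretreated cells, against −1.04, −1.17 and −0.30 in naive cells, so its pretreated values were close to 0. NOP8 (−1.37) and RPC19 (−1.33) had pretreated values below and naive values above 0. In both, 1 pretreated array lay near 0, at −0.04 for NOP8 and −0.25 for RPC19. The difference between the groups is the tested one, and whether each group differs from its own 0 min was not tested for these genes.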

How the results depend on the processing

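Between 49 and 54 of the 54 named genes past the test could be tested under each of the 21 alternatives. Among these, the fit within YG9 and the fit without replicate 3 of both groups are the same fit. The sign of 0 turned, but these genes were selected on the same arrays, so a kept sign was largely built in. Still past the test were 0 of them with the 6 arrays alone, 0 with all arrays scaled and 6 with the H2O2 arrays. It was 8 without replicate 1 of both groups, 14 without pretreated replicate 3 and 54 with the arrays centred on their medians. The number of calls over all genes did not hold either. For the difference at 20 min, counts more than 1.5 times away from 205 were 0 with the 6 arrays alone, 6 with the H2O2 arrays, 0 with all arrays scaled, 542 with the array series as a block and from 11 to 692 with a replicate left out. For the level difference, counts more than 1.5 times away from 12 were 0 with only the arrays compared, 35 with all arrays scaled, 814 with the series as a block, 84 with array weights, 0 with the mock arrays subtracted, 22 within YG9 (chosen after seeing the data) and from 0 to 145 with a replicate left out. For the change between 10 and 20 min the count was 16 with the array number as a random block (estimated correlation 0.541), 1 with array weights and from 0 to 1 with a replicate left out. With the replicate number as a block, 483 genes passed at 20 min and 21 for the level. Same-numbered arrays had residual correlations of 0.27, 0.09 and 0.56. Pretreated replicate 1 correlated better with naive replicate 2 (0.39). Replicate 3 is the YG8 array in both groups, and its arrays correlated with the other group's replicates 1 and 2 at −0.27 to −0.47. The residuals of a group sum to 0 for each gene. A positive value with 1 replicate therefore forces a negative value with at least 1 other. Because of this constraint, the correlations cannot decide whether the arrays are paired by number. Fewer arrays leave fewer degrees of freedom; no cause was tested for the other counts.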

Other observations

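The lists held 32 of the 166 higher and 18 of the 39 lower genes, so that most higher genes stood in none. The genes in this paragraph were chosen after their values were seen, and no theme was tested. ROM2, the paralog of ROM1, read 0.07, −0.14 and 0.32 in pretreated cells, against −0.79, −0.79 and −0.69 in naive cells, and SLT2, the MAP kinase of the cell wall integrity pathway, read 1.35, 1.15 and 1.5 in pretreated cells, against 0.28, 0.65 and 0.77 in naive cells. Both were higher in pretreated cells, by 0.84 and 0.77. PMC1, the vacuolar calcium pump, read 0.31, −0.05 and 0.83 in pretreated cells, against −1.63, −1.48 and −0.34 in naive cells. RPO41, the mitochondrial RNA polymerase, differed by 1.26 and MIP1, the mitochondrial DNA polymerase, by 1.10, both below 0 on most arrays. RIM15, a kinase of nutrient signalling, was higher by 1.05 and SFP1, an activator of ribosomal protein genes, by 0.70. TOD6, a repressor of ribosome biogenesis genes, was lower, with a difference of −1.41, on 2 pretreated and 3 naive arrays. Among genes with the highest ratios in both groups, HSP30 read 7.17, 7.35 and 8.06 in pretreated cells, against 7.52, 6.92 and 7.39 in naive cells, and HSP26 read 4.90, 5.58 and 5.67 in pretreated cells, against 5.67, 6.04 and 6.32 in naive cells. Neither passed the test (adjusted p = 0.86 and 0.35).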
